A study of Mus musculus with 12 samples.

Results

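Ipcef1, Bnc1, Tmprss11a, Rgs17 and Pkd2l2 are 5 genes of mouse preimplantation embryos, out of 18194 named genes on the array. Their mRNA was high at the 2-cell stage, near background in 4- to 8-cell embryos 1 day later, and in between in embryos of the same age held by the drug U0126. They were chosen for that order of levels. The levels of control day 1.5, control day 2.5 and U0126 day 2.5 embryos are therefore given as a description, without a test. Tests of the 5 genes are limited to comparisons among the 3 groups that the choice did not use. The spread in those tests was estimated from all 12 arrays, those used for the choice included.

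The embryos were of the ICR strain, an outbred stock, and each of the 6 groups was measured on 2 Affymetrix Mouse Genome 430 2.0 arrays. Control embryos were collected at day 1.5 as 2-cell embryos, at day 2.5 as 4- to 8-cell embryos and at day 3.5 as morulae to blastocysts. Embryos exposed to 20 µM U0126 were arrested with 4 cells at day 2.5. Embryos released from that arrest had reached 8 cells at day 3.5 and were morulae to blastocysts at day 4.5. U0126 inhibits the MEK kinases, which phosphorylate and activate ERK, and it was the only agent named. The start of exposure, a solvent control and the number of embryos in a sample are not given in the sources used here. The replicates came from 2 independent experiments per the series' design text. No source says that animals or cultures were separate. The p-values rest on how far the 2 arrays within each group differ, pooled over the 6 groups and moderated over all genes tested. Those differences may be technical.

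In the mouse, the 2-cell stage is the time of the main wave of zygotic genome activation. RNA stored in the egg is degraded over the same period, partly by removal of its poly(A) tail, and a set of early zygotic transcripts is made and then silenced before the embryo has 8 cells. An array reads the amount of RNA and does not separate RNA stored in the egg from RNA made by the embryo. Nor, in whole embryos, can fewer cells with a transcript and less of that transcript per cell be told apart.

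The 5 genes belong to different families. Bnc1 encodes basonuclin 1, a zinc-finger protein of germ cells and keratinocytes that binds the promoters of ribosomal RNA genes and is supplied to the embryo by the egg. Rgs17 encodes a regulator of G-protein signalling, which speeds the return of Gi and Gz alpha subunits to their inactive state. Ipcef1 encodes an interaction partner of the cytohesins, which load Arf GTPases with GTP. Pkd2l2 encodes a channel protein of the polycystin 2 family. Tmprss11a encodes a serine protease anchored in the plasma membrane. The genes lie on chromosomes 10 (Ipcef1 and Rgs17), 7 (Bnc1), 5 (Tmprss11a) and 18 (Pkd2l2).

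The 5 genes were chosen for the same order of levels, and upstream sequences are shown so that the letters before their start sites can be compared. They are RefSeq promoter windows of the build GRCm38.p6, 300 bases long, from 250 bases before to 50 after an annotated start, printed 5′ to 3′ along the gene. Windows were found for 4 of the 5 genes. All lie on the minus strand, at chr7:81992250-81992549 for Bnc1, chr10:5922351-5922650 for Rgs17 and chr5:86468941-86469240 for Tmprss11a. Ipcef1 has 3 annotated windows, at chr10:6980232-6980531, chr10:6980416-6980715 and chr10:7023136-7023435, and the first and the last are shown since the second overlaps the first. Capitals mark matches to the GC box letters GGGCGG or the AP-1 letters TGACTCA on either strand.
Bnc1: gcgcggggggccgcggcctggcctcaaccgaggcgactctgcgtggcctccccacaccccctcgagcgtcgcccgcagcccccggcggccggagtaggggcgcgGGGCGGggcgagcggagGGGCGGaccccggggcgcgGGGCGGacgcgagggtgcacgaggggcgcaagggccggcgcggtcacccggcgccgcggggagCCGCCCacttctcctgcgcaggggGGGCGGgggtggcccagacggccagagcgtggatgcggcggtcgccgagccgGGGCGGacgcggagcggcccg
Rgs17: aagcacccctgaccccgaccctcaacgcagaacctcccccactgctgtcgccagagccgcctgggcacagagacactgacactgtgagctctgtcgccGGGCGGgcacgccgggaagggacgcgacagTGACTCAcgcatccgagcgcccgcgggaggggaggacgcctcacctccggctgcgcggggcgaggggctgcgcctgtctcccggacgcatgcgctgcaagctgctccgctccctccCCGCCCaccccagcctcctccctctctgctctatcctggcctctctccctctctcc
Tmprss11a: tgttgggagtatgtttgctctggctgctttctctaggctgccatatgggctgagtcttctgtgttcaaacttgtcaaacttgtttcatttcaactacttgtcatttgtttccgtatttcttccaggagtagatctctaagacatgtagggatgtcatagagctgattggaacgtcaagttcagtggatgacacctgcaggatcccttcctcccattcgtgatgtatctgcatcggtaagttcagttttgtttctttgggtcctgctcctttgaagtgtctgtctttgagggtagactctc
Ipcef1, first window: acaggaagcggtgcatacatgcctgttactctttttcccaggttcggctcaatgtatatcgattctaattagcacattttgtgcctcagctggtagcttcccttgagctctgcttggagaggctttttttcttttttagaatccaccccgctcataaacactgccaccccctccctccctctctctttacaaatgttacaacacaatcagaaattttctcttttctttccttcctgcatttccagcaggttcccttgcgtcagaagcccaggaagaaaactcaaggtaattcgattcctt
Ipcef1, last window: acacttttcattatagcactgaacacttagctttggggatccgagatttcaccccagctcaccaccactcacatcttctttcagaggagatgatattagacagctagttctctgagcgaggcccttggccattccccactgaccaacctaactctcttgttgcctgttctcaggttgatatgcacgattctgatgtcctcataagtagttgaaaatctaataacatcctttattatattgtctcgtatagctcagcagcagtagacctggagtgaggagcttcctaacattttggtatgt

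The windows fell into different classes of base composition. The Bnc1 window was 83.3% G and C with 50 CpG dinucleotides, more CpG than 99.1% of the 32851 windows in the table, and the Rgs17 window was 71.0% G and C with 27 CpG. The Tmprss11a window held 4 CpG at 44.3% G and C, and the Ipcef1 windows held 3 to 6 CpG, below the median of 7 CpG and 52.7% over all windows. GC boxes stood at 6 places in the Bnc1 window and at 2 in the Rgs17 window, and 35.7% of all windows held at least 1. The Rgs17 window had an AP-1 match with its first base at -122 from the start site, a match that 5.2% of all windows held. The letters TATAAA (13.6% of all windows), CCGGAAG of ETS factors (8.86%), TGACGTCA of cAMP response elements (1.79%) and TAATCC of paired-like homeodomain factors (7.06%) were searched on both strands and were not in any of the 6 windows. No motif matched in the Tmprss11a window or in the 3 Ipcef1 windows, which says only that these letters are not there. The start regions of the 4 genes thus ranged from CpG-dense to CpG-poor.

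All levels below are log2(intensity + 1) on the scale of the deposited values, whose median per array was 10.8 to 11.5 in intensity. A level of 5 was used as the lower limit of signal, and a gene was tested if it reached that level on at least 2 arrays. All 5 genes passed, each through the control day 1.5 and U0126 arrays, since 0 would have passed on the other arrays. With 2 arrays a group, the number of arrays limits the precision.

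Bnc1 stood at 9.73 and 10.42 on the arrays of control day 1.5 embryos, replicates 1 and 2. It stood at 3.02 and 3.24 in control day 2.5 embryos, against 6.64 and 7.43 in U0126 day 2.5 embryos. In the other groups it stood at 2.95 and 2.91 in control day 3.5, 3.11 and 3.07 in released day 3.5, and 2.98 and 2.90 in released day 4.5 embryos. The groups of day 1.5 and of U0126 each lay apart from all the rest without overlap, and the 8 remaining arrays were within a narrow band near background. In intensity, the transcript went from 848 and 1368 in 2-cell embryos to 98.7 and 171 in arrested embryos. The normal step from day 1.5 to day 2.5 was a difference of -6.94 ± 0.32 (standard error of the fit, which for a given gene is the same in every comparison), and arrested embryos differed from day 2.5 controls by 3.91 and from day 1.5 controls by -3.04.

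Rgs17 gave 9.74 and 10.35 at control day 1.5. Its level was 3.07 and 3.33 in day 2.5 controls and 6.19 and 7.60 under U0126. It was 3.02 and 2.87 in control day 3.5, 3.08 and 3.24 in released day 3.5 and 2.998 and 3.24 in released day 4.5 embryos. Both U0126 arrays were above every array of day 2.5 or later without the drug, and the 2 arrested samples were 1.41 apart. The day 2.5 minus day 1.5 control difference was -6.84 ± 0.41, and the U0126 minus control difference at day 2.5 was 3.69.

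Ipcef1 stood at 9.92 and 10.80 in control day 1.5 embryos and at 2.72 and 2.74 in control day 2.5 embryos. Under U0126 it stood at 6.03 in replicate 1 and 8.21 in replicate 2. Control day 3.5 embryos gave 2.60 on both arrays, released day 3.5 embryos 2.66 and 2.65, and released day 4.5 embryos 2.58 and 2.53. The groups of day 1.5 and of U0126 did not overlap with each other or with the rest, but the arrested replicates were 2.18 apart, which was the widest gap between replicates for any of the 5 genes. The difference was -7.64 ± 0.56 from day 1.5 to day 2.5 in controls, 4.39 between arrested and control day 2.5 embryos, and -3.25 between arrested and day 1.5 embryos.

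Pkd2l2 went from 11.43 and 12.13 in control day 1.5 embryos to 2.97 and 2.86 in control day 2.5 embryos, and it stood at 5.74 and 6.85 under U0126. The later groups gave 2.69 and 2.76 in control day 3.5, 3.13 and 2.82 in released day 3.5, and 2.78 and 2.80 in released day 4.5 embryos. Both arrested arrays were above all 8 arrays of the other day 2.5 to day 4.5 groups and well under both day 1.5 arrays. The control step of -8.87 ± 0.37 was the widest among the 5 genes, and the difference between arrested and day 1.5 embryos, at -5.49, was wider than the -3.04 to -3.25 of the other four. The difference between arrested and control day 2.5 embryos was 3.38.

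Tmprss11a stood at 11.23 and 11.39 in control day 1.5 embryos. It had 4.60 and 4.42 in control day 2.5 embryos against 7.85 and 8.61 under U0126. It then stood at 3.66 and 3.25 in control day 3.5, 3.81 and 3.34 in released day 3.5, and 2.87 and 2.80 in released day 4.5 embryos. The day 1.5 and U0126 groups were again apart from the rest. Within the low arrays, both day 2.5 controls were above all 6 later arrays and both released day 4.5 arrays below the other 4. On the intensity scale these low values ran from 23.3 and 20.4 at control day 2.5 to 6.3 and 5.9 at released day 4.5. Arrested embryos differed from day 2.5 controls by 3.72 and from day 1.5 controls by -3.08.

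**Figure D1:**
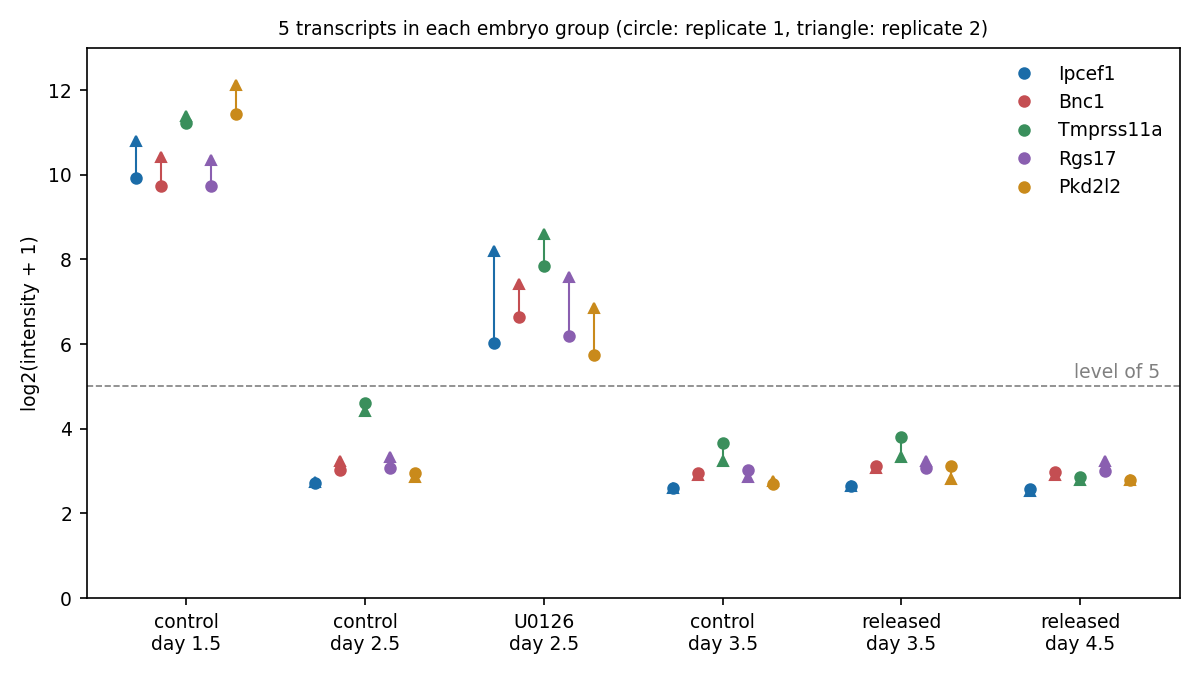
Level of each of the 5 transcripts, as log2(intensity + 1), in the 6 embryo groups, with a circle for replicate 1, a triangle for replicate 2 and a line joining them. The control day 1.5 and U0126 day 2.5 groups lie above a level of 5 for all 5 genes, and the 40 values of the other 4 groups lie below it.

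Together the 5 genes gave 40 values in the other 4 groups, and 0 of them reached a level of 5. Their intensity there was 4.76 to 23.3, and 36 of the 40 were below the median of their array, with the 4 others all from Tmprss11a. Since the day 2.5 controls lay under the limit of signal, the size of the difference to them rests on background. Counted from a level of 5 instead, arrested embryos were at least 9.39-fold higher for Tmprss11a, 4.33-fold for Ipcef1, 4.10-fold for Bnc1, 3.71-fold for Rgs17 and 2.45-fold for Pkd2l2. In the fit over all 9930 genes tested with limma, 55.4% differed between control day 1.5 and control day 2.5 embryos (27.4% lower at day 2.5), at a Benjamini-Hochberg adjusted p under 0.05. Between U0126 and control embryos at day 2.5, 13.9% differed, 9.21% being higher and 4.72% lower under U0126. These shares are the background to the choice and nothing is read from the place of the 5 genes in them.

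Arrested embryos held 10.5% of the day 1.5 level of Ipcef1, 12.2% of Bnc1, 11.8% of Tmprss11a, 11.2% of Rgs17 and 2.23% of Pkd2l2, from the group means. Within replicate 1 the shares were 6.61% for Ipcef1, 11.6% for Bnc1, 9.56% for Tmprss11a, 8.40% for Rgs17 and 1.89% for Pkd2l2, and within replicate 2 they were 16.5%, 12.5%, 14.5%, 14.8% and 2.55% in that order. The first 4 genes thus stood between 6.61% and 16.5% in both replicates while Pkd2l2 stood below 3% in both. The share of Ipcef1 rested on the replicate used, at 22.4% without U0126 replicate 1 and 4.96% without U0126 replicate 2. The same holds for Rgs17, at 18.3% without U0126 replicate 1 and 6.90% without replicate 2.

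Limma called 2721 genes lower at day 2.5 than at day 1.5 in controls. Among them the median share of the day 1.5 level left under U0126 was 34.5%. Most of these genes fell by less than the 5 genes did. Of the 2721, 78 had fallen by at least 6 log2 units, and for those the median share left was 3.15%, with quartiles at 1.92% and 6.06%. Within those 78, 3 genes had a higher share than Bnc1, 4 than Tmprss11a, 5 than Rgs17, 7 than Ipcef1 and 51 than Pkd2l2. The 5 genes were chosen on the same arrays, so these places are a description of the choice.

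To place the pattern, genes were collected that stood at or above 9 on both control day 1.5 arrays and under 5 on both control day 2.5 arrays, limits set after the values had been seen. There were 65, among them the 5. Under U0126, 30 of the 65 were at or above 5 on both arrays, all 30 of them below their day 1.5 level on both arrays, while 22 were so on 1 array and 13 on neither. The 30 included Nlrp9c and Nlrp4a, members of an oocyte-expressed family, the homeobox gene Obox3, the phosphatase gene Dusp7, the growth factor gene Bmp6, the guanine deaminase gene Gda and the transcription elongation factor gene Mllt3. The 13 under 5 on both arrays included Tcl1b4, and the importin gene Kpna7 was among the 22. The 65 as a whole also held Wee2 and Bmp15, known from oocytes, both above 5 on 1 array at most.

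**Figure D2:**
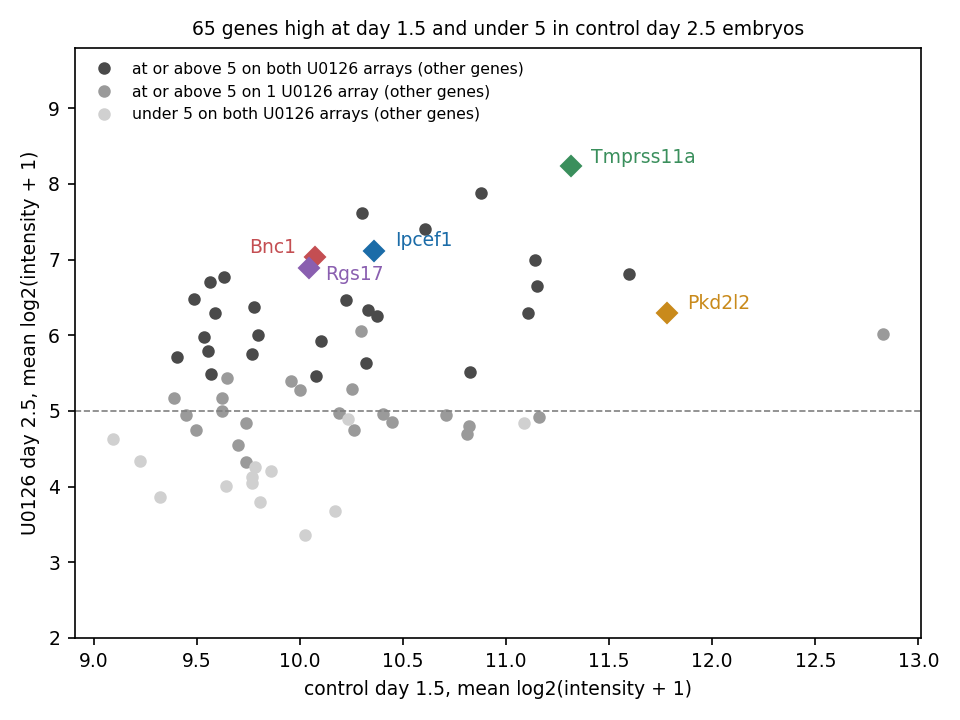
Mean level in U0126 day 2.5 embryos against mean level in control day 1.5 embryos, both as log2(intensity + 1), for the 65 genes that were high in 2-cell embryos and under 5 in day 2.5 controls. Points are shaded by the number of U0126 arrays at or above 5 (30 genes on both, 22 on 1, 13 on none), and the 5 genes, drawn as diamonds, are among the 30.

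In both groups with signal, replicate 2 was higher than replicate 1 for all 5 genes. The median gap was 0.69 in control day 1.5 embryos and 1.11 under U0126. Over all genes tested, replicate 2 was the higher for 48.1% and 43.6% in those groups, and over the 2721 falling genes for 61.1% and 52.6%. Of the 30 genes kept on both U0126 arrays, 23 were higher in replicate 2 at day 1.5 and 21 under U0126. The part of the experiment in this was not tested, and the labels do not say that replicate numbers mark the experiments.

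The groups that the choice did not use are control day 3.5, released day 3.5 and released day 4.5. All 30 values of the 5 genes in these groups were under a level of 5, so signal above that limit was not seen on any array after release. The genes entered the fit only through the day 1.5 and U0126 arrays, and the tests below compare values near background. That 0 of the 5 passed in any of the 3 comparisons does not show that their levels were alike. In released day 3.5 minus control day 3.5 embryos the differences were 0.05 ± 0.56 for Ipcef1 (95% interval -1.18 to 1.29), 0.16 ± 0.32 for Bnc1 (-0.55 to 0.87), 0.12 ± 0.31 for Tmprss11a (-0.57 to 0.81), 0.21 ± 0.41 for Rgs17 (-0.69 to 1.12) and 0.25 ± 0.37 for Pkd2l2 (-0.57 to 1.06). By limma's test 0 of the 5 passed (adjusted p = 0.999 for each, 0 at an unadjusted p under 0.05), where 0.312% of all genes tested did, 0.302% being higher after release. Both released arrays were above both control arrays for Ipcef1, Bnc1, Rgs17 and Pkd2l2, while the groups overlapped for Tmprss11a. The share of all genes tested with such an order was not counted, so nothing is read from it. Both groups were under a level of 5 for all 5 genes, so no fold is given.

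Released day 4.5 embryos, given as the same stage as control day 3.5 embryos, were set against the same 2 control arrays. Here 0 of the 5 passed limma's test (lowest adjusted p = 0.294, 0 at an unadjusted p under 0.05), against 5.88% of all genes, or 584 genes and 1017 with the replicate number as a block. Bnc1 differed by 0.01 (-0.70 to 0.72), Ipcef1 by -0.05 (-1.28 to 1.18), Pkd2l2 by 0.06 (-0.75 to 0.88) and Rgs17 by 0.17 (-0.74 to 1.08). Tmprss11a had the widest difference, -0.62 ± 0.31 (-1.31 to 0.07), with both released arrays below both control arrays and an adjusted p of 0.294 by limma.

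Between released day 3.5 and released day 4.5 embryos, Tmprss11a was again the gene with the widest difference, -0.74 ± 0.31 (-1.43 to -0.05). Its unadjusted p was 0.0375, the only one of the 5 under 0.05, and its adjusted p by limma was 0.144, and 0 of the 5 passed, against 13.7% of all genes tested (1365 genes, and 2165 with the replicate block). Both released day 4.5 arrays were below both released day 3.5 arrays, all 4 of them under a level of 5. The other 4 genes differed by -0.18 to -0.04, with limma adjusted p from 0.804 to 0.964.

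**Figure D3:**
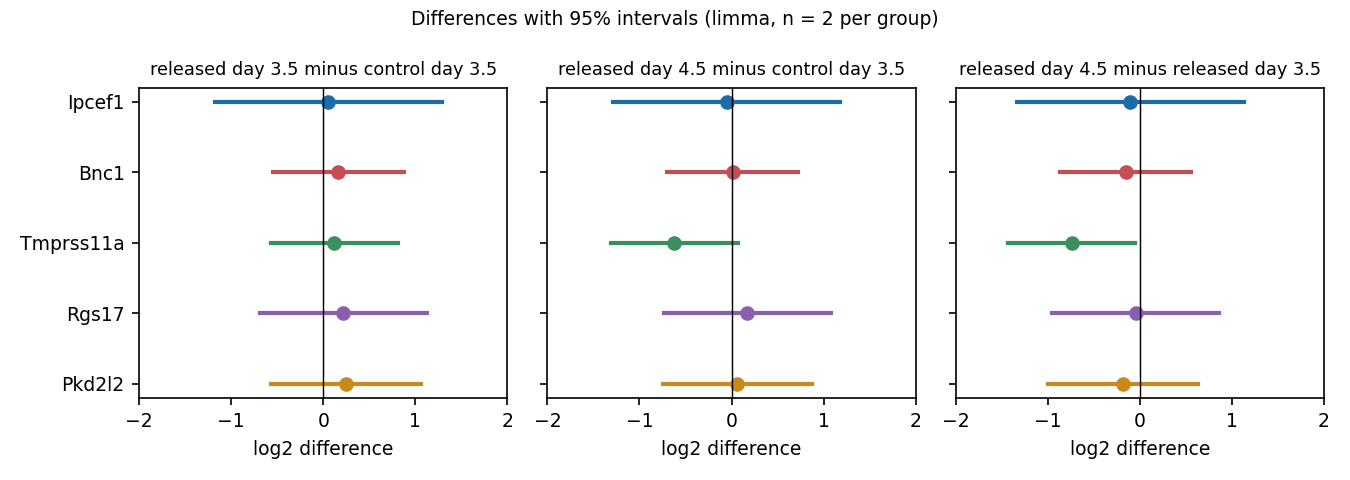
Differences in log2(intensity + 1) for the 5 genes in the 3 comparisons among groups the choice did not use, as points with 95% intervals from limma (2 arrays per group). All intervals include 0 except that of Tmprss11a in released day 4.5 minus released day 3.5 embryos, -1.43 to -0.05, which did not pass after adjustment.

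The steps that share a group with the choice are given as values only. From U0126 day 2.5 to released day 3.5 embryos the differences were -4.46 for Ipcef1, -3.94 for Bnc1, -4.66 for Tmprss11a, -3.73 for Rgs17 and -3.31 for Pkd2l2, which brought all 5 under a level of 5 on both arrays. From control day 2.5 to control day 3.5 embryos, Tmprss11a differed by -1.06 and the other 4 genes by -0.25 to -0.12.

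Most but not all of the class of 65 genes stayed low on the later arrays. Of the 30 genes seen on both U0126 arrays, 22 were under 5 on all 6 later arrays, the 5 genes among them, as were 47 of the 65. In released day 3.5 embryos 4 of the 30 were at or above 5 on both arrays. These were Obox3 at a mean of 7.77, Mllt11 at 6.27, Shroom4 at 5.78 and Grm2 at 5.52, and they were chosen for mention after their values were seen. Their means in control day 3.5 embryos were 3.85, 5.73, 6.33 and 4.45 in that order. In those control embryos 3 of the 30 were at or above 5 on both arrays. Obox3 had 6.34 and 7.28 under U0126 and 8.05 and 7.49 in released day 3.5 embryos, against 4.01 and 3.69 in control day 3.5 embryos. Both released day 3.5 arrays thus stood above both controls, while the mean in released day 4.5 embryos, 3.76, was close to the 3.85 of control day 3.5 embryos.

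Obox3 belongs to a list of 15 tested genes of the 2-cell stage. Of these, 5 were higher in released than in control day 3.5 embryos and 0 lower by limma. Over all genes tested, 0.302% were higher. The median difference was 1.07, against -0.01 over all genes tested. The 5 were Obox3, Zfp352, Usp17la, Tcstv1 and Tcstv3. Released day 3.5 embryos were at an earlier stage than control day 3.5 embryos, so release and stage are not separated here. The part of stage was not tested. In control day 2.5 embryos, which were nearer in stage, Obox3 had a mean of 4.32. Its class had been chosen to be under 5 there. Zfp352, a zinc-finger gene of the 2-cell stage, had 9.50 and 9.74 in released day 3.5 and 2.94 and 4.07 in control day 3.5 embryos. The number of genes called in this comparison fell from 31 to 1 without control day 3.5 replicate 1, to 6 without released day 3.5 replicate 2 and to 15 without released day 3.5 replicate 1. In a list of 20 tested maternal oocyte genes, 0 differed in this comparison, as did 0 of 22 deadenylation and decay factors. The lists were chosen with earlier results of these data known.

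Relatives and partners of the 5 genes were then examined in U0126 against control day 2.5 embryos. Their lists were written from gene family and function, but with earlier results of these data known. The share of all genes tested whose arrested arrays lay apart from day 2.5 controls was not counted. Nothing is therefore read from such an order alone. The median difference over all genes tested was 0.11, and of 1384 genes called 915 were higher and 469 lower. With each array centred on the median of the genes tested that median moved to -0.09 and the calls were 553 higher and 624 lower, so the balance of directions depends on the scaling. Cnksr3, Gnai1, Pkd1, Rgs9bp, Arf1 and Taf1a, described next, kept their direction under median centring and under quantile normalization.

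Bnc2, the other basonuclin gene, was lower in control day 2.5 than in day 1.5 embryos (-5.17 ± 0.44, limma adjusted p = 5.03e-06), but no difference passed under U0126. It had 9.27 and 10.37 in control day 1.5, 4.28 and 5.03 in control day 2.5 and 4.58 and 4.99 in U0126 embryos. The U0126 and control arrays at day 2.5 overlapped, with a difference of 0.13 ± 0.44 (limma adjusted p = 0.901), and 0 of 12 alternative settings gave a call. Bnc2 was singled out after its values were seen. Of 14 tested genes of RNA polymerase I, whose templates basonuclins bind, and Bnc2 itself, 1 was higher and 0 lower, with a median of 0.11, equal to that of all genes. The higher one was Taf1a, a subunit of the selectivity factor of RNA polymerase I (1.10 ± 0.33, limma adjusted p = 0.0478), a call made under 4 of 12 alternatives.

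Among partners of Rgs17, Gnai1, an inhibitory G-protein alpha subunit, had a like order of levels. It stood at 11.15 and 11.32 in control day 1.5, 7.72 and 8.33 in control day 2.5 and 9.43 and 9.28 in U0126 embryos. Both arrested arrays were above both day 2.5 controls (1.33 ± 0.34, limma adjusted p = 0.0284), and the call was lost without either U0126 replicate and without control replicate 1 (highest adjusted p over 12 alternatives 0.188). Of 3 tested Gi family subunits, 1 was higher and 0 lower, and Gnai2 and Gnai3 differed by 0.57 and 0.29 without passing. Of 7 tested genes in a list of RGS proteins and their membrane anchors other than Rgs17, 1 was higher and 1 lower, with a median of 0.12. The lower one was Rgs3, named after its values were seen (-1.12 ± 0.32, limma adjusted p = 0.0428), a call made under 4 of 12 alternatives. The higher one was Rgs9bp, which is not itself an RGS protein but anchors one to membranes. It had 9.24 and 8.02 under U0126 and 3.26 to 3.66 on every other array, the day 1.5 controls included, so that it did not follow the order of Rgs17 (5.06 ± 0.36, limma adjusted p = 2.24e-04). Rgs2 stood at 7.46 and 8.74 in control day 1.5, 4.82 and 3.70 in control day 2.5 and 5.41 and 5.60 in U0126 embryos, and its difference of 1.24 ± 0.43 did not pass (limma adjusted p = 0.0866). Rgs19, of the same subfamily as Rgs17, had 5.98 and 6.60 in controls and 6.58 and 6.91 under U0126 at day 2.5, which overlapped (0.45 ± 0.28, limma adjusted p = 0.338).

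Ipcef1 acts with cytohesins and Arf GTPases. Of 10 tested genes of that group, 1 was higher, 1 lower and 8 passed in neither direction, with a median of -0.08. The higher one was Cnksr3, a scaffold gene that shares sequence with Ipcef1 and is the next gene along the chromosome, and it was singled out after its values were seen. It had 9.31 and 9.40 in control day 1.5, 7.11 and 6.61 in control day 2.5 and 8.70 and 8.17 in U0126 embryos. The arrested arrays lay between the day 1.5 and day 2.5 controls without overlap (1.57 ± 0.30, limma adjusted p = 0.00814), and the call was lost without control day 2.5 replicate 2. Arf1, a GTPase of the Golgi, was lower (-1.05 ± 0.28, limma adjusted p = 0.0347), a call made under 5 of 12 alternatives and lost when any one of the 4 arrays was left out, and Arf6, the substrate of cytohesins at the plasma membrane, differed by -0.03 ± 0.26. The cytohesin gene Cyth3 had 5.97 and 6.46 in control day 1.5, 6.85 and 7.57 in control day 2.5 and 8.03 and 8.34 in U0126 embryos. Its order was thus not that of Ipcef1, and its difference of 0.98 ± 0.35 did not pass (limma adjusted p = 0.0927).

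Pkd1, which encodes the large partner of polycystin channels, was the only tested relative of Pkd2l2. It stood at 7.08 and 6.11 in control day 1.5, 3.89 and 3.68 in control day 2.5 and 5.63 and 5.91 in U0126 embryos. The order was that of Pkd2l2, with no overlap between arrested and day 2.5 control arrays (1.99 ± 0.35, limma adjusted p = 0.00575), and the call was made under 11 of 12 alternatives.

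Tmprss11a had no relative with its pattern among those measured. Tmprss11d, Tmprss11g and Tmprss11f, its neighbours and relatives on chromosome 5, were under 5 on all 12 arrays, with Tmprss11d at 3.28 to 3.80. Of 4 tested genes of membrane-anchored serine proteases and their inhibitors, 0 passed in either direction, with a median of -0.13. The protease matriptase, from St14, had 4.70 and 3.11 in control day 1.5 embryos and 9.43 and 8.54 in control day 3.5 embryos, an order opposite to that of Tmprss11a. Its levels in U0126 embryos, 6.96 and 4.76, overlapped those of day 2.5 controls, 6.97 and 5.29.

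**Figure D4:**
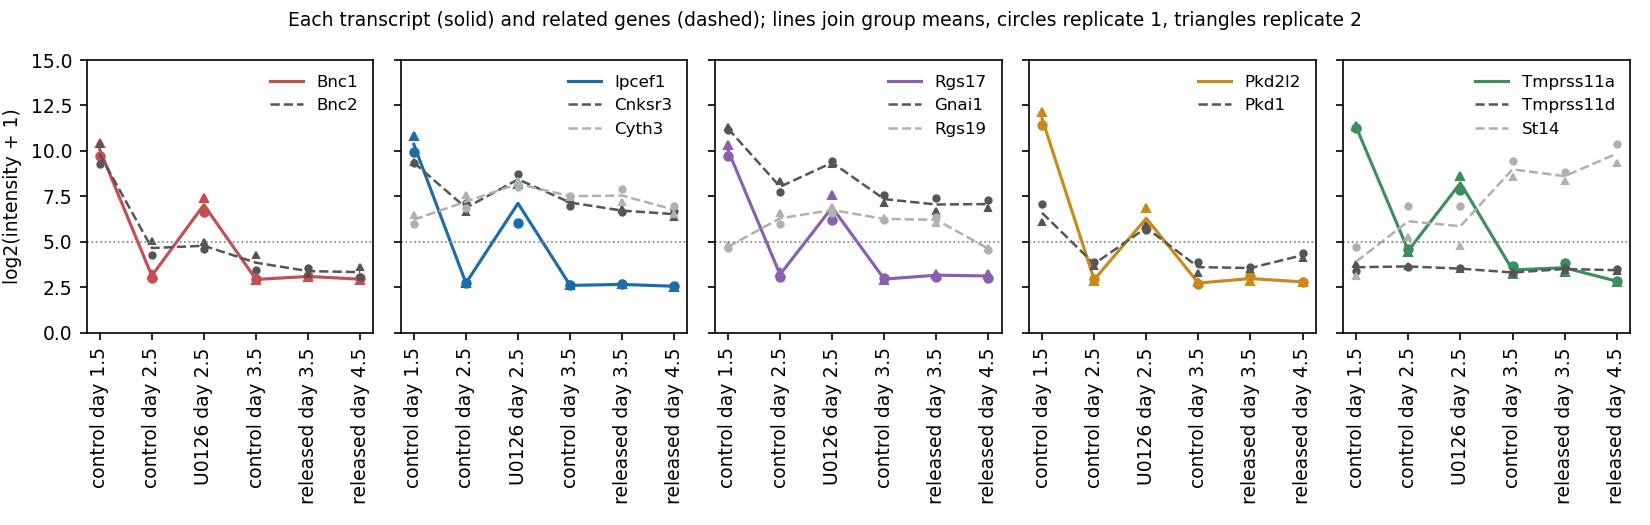
Levels of each of the 5 genes (solid line) and of related genes (dashed lines) as log2(intensity + 1) over the 6 groups, with lines through group means, circles for replicate 1 and triangles for replicate 2. Cnksr3, Gnai1 and Pkd1 lie higher in U0126 than in control day 2.5 embryos, as does Cyth3, whose difference did not pass. Bnc2, Rgs19 and St14 overlap between those groups, and Tmprss11d is under 5 in both.

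Rgs17 and Ipcef1 lie near each other on chromosome 10. In the RefSeq annotation of GRCm38.p6, 3 genes lie wholly between them, 1 of them protein coding, and 0 of these has a named value on the array. Of 7 genes with values in this stretch, Oprm1, the gene of an opioid receptor, overlaps Ipcef1 and stood at 3.003 to 3.40 on all 12 arrays. On the other side of Rgs17, Fbxo5, an inhibitor of the anaphase-promoting complex, had 10.36 and 10.39 in control day 1.5, 10.13 and 9.83 in control day 2.5 and 9.07 and 8.84 in U0126 embryos, and so was lowest in the arrested group. Mtrf1l, on the same side, took the opposite control step, from 5.05 and 3.39 in control day 1.5 to 7.81 and 7.10 in control day 2.5 embryos, with 5.51 and 7.09 under U0126. Ulbp1, beside Cnksr3, was under 5 on all 12 arrays. Thus 3 of the 7 (Ipcef1, Rgs17 and Cnksr3) were lower in control day 2.5 than in day 1.5 embryos and in between under U0126, and the first 2 of these were chosen for that order. The 4 nearest genes with values around Bnc1 (Tm6sf1, Hdgfl3, Sh3gl3 and Adamtsl3) were each under 5 on both U0126 arrays. These neighbours were named by position and described after their values were seen.

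The 5 profiles correlated with each other at Pearson r between 0.968 (Tmprss11a and Pkd2l2) and 0.998 (Ipcef1 and Rgs17) over the 12 arrays. These values are a description, since the points share 2 high day 1.5 arrays and 8 arrays near background and the genes were chosen for that shape. The gene most like the mean of the 5 profiles was Oosp2, an oocyte-secreted protein gene (r = 0.997), with group means of 9.08 in control day 1.5, 3.01 in control day 2.5 and 5.77 in U0126 embryos. It was followed by Nlrp9c (r = 0.996), with 9.63, 3.41 and 6.77, and by Ggct, an enzyme gene of glutathione turnover (r = 0.992), with 12.73, 7.89 and 10.46. Otub2, a deubiquitinase gene, and 9330102E08Rik came next, both at r = 0.991. In all, 266 of 9925 genes had r over 0.95 with the mean profile, so the shape was shared by many genes.

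For single genes, Oosp2 and Nlrp9c were among the 3 closest to Ipcef1 and to Bnc1. The closest to Tmprss11a was Gpbp1 (r = 0.995), which had signal in every group with means from 11.08 to 14.38. Oosp2 and Ggct were the closest to Rgs17. Those closest to Pkd2l2 were Pramel32 (r = 0.997), Gm6600 (r = 0.995) and Trim75 (r = 0.995), none of which was named for another of the 5. By the root mean square difference in place of r, 1 of the 3 named genes was shared for each of Ipcef1, Bnc1, Tmprss11a and Rgs17 and 0 for Pkd2l2, so the names depend on the measure.

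Other probe sets of the same genes did not all show the pattern. Ipcef1 had 3 probe sets, and a second one gave intensities of 56.2 and 134 in control day 1.5 but only 8.96 and 7.24 in U0126 embryos, against 7.72 and 7.21 in control day 2.5 embryos. The U0126 values overlapped those of day 2.5 controls, so this probe set did not show the raised level of the main one, replicate 2 included, where the main one kept 16.5% of its day 1.5 signal. The third probe set of Ipcef1 was at 6.37 to 8.31 on all arrays, the second of Rgs17 at 5.83 to 7.55 and the second of Pkd2l2 at 4.99 to 9.08, all near background in every group. Bnc1 and Tmprss11a had 1 probe set each. Each of the 5 patterns under U0126 therefore rests on 1 probe set.

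Markers were used to check the labelled embryos and the cells that could come with them. Of 10 oocyte and maternal markers, 9 were at or above 5 on both control day 1.5 arrays, and their summed intensity was 21674 and 26289 there, 640 and 881 in control day 2.5 and 1884 and 2035 in U0126 embryos. It was 145 and 235 in control day 3.5, 414 and 304 in released day 3.5 and 110 and 121 in released day 4.5 embryos. The sum thus moved in the same order as the 5 genes at days 1.5 and 2.5. By count, 5 of the 10 were at or above 5 on both arrays in control day 2.5 embryos, and also 5 in U0126 embryos. Of the 8 measured cumulus and granulosa markers and the 5 sperm markers, 0 reached a level of 5 on any array. Of 4 blood and immune markers, Cd74 alone reached it, on 1 control day 3.5 array. Among 5 oviduct epithelium markers, Ovgp1 reached it on 1 array each of control day 1.5, control day 2.5 and U0126 embryos, and Krt7 did so in the later groups. The summed intensity of these 5 was 49.6 and 79.3 in control day 1.5, 57.8 and 81.2 in control day 2.5 and 68.9 and 125.97 in U0126 embryos, replicates 1 and 2. It was thus higher in replicate 2, as the 5 genes were in the day 1.5 and U0126 groups, and its part in that was not tested. Trophectoderm markers summed to 1811 and 1479 in U0126 embryos and 4764 and 4373 in control day 2.5 embryos. The earlier stage of arrested embryos and both marker sums move with the levels of the 5 genes under U0126, and their part in the result was not tested.

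Factors that remove maternal RNA were part of the lists. Of 22 tested deadenylation and decay factors, 3 were higher and 0 lower in U0126 than in control day 2.5 embryos, with a median of 0.17 against 0.11 for all genes. They were Btg4, the adaptor that brings the deadenylase to maternal mRNA, which is itself a maternal transcript, and Tob2 and Zfp36l2. Btg4 had 13.29 and 13.60 in control day 1.5, 6.97 and 7.35 in control day 2.5 and 9.83 and 9.41 in U0126 embryos (2.46 ± 0.29, limma adjusted p = 0.00135). It shared the order of the 5 genes without overlap between groups, but the share of all genes tested with that order was not counted. Of 20 tested maternal oocyte genes, 4 were higher (Btg4, Tcl1, Nlrp5 and Cpeb1) and 1 lower (Khdc3), with a median of 0.54. Among 18 tested ERK target genes, the list nearest to the target of the drug, 5 were higher and 3 lower, with a median of 0.81. Over all genes tested, 9.21% were higher and 4.72% lower in this comparison, with a median of 0.11. The balance of directions depends on the scaling, as given above.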

How the data were processed

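RNA from whole embryos was isolated with ISOGEN and amplified by the manufacturer's 2-cycle labelling from 0.1 µg, per the labels' protocols. The deposited values were linear intensity values for 45101 probe sets on 12 arrays. GCRMA, which corrects background, quantile-normalizes and summarizes probes, is named in the submitters' processing notes, and GCOS 1.2 and GeneSpring 7.3 in the series' design text. The settings used in GeneSpring are unknown here, and the unit is arbitrary.

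The annotation table gave 34958 probe sets 1 gene symbol, 932 several and 9211 none. Each of 18194 genes was represented by its probe set with the highest mean, as log2(intensity + 1), without further normalization. The 9930 genes that reached a log2 value of 5 on 2 or more arrays entered 1 limma fit (3.58.1, R 4.3.3) of all 12 arrays, with a mean per group and Benjamini-Hochberg adjustment over all genes. Residual degrees of freedom were 6, with 4.51 from the prior, and the median standard error of a difference was 0.35. Replicate arrays correlated at 0.955 to 0.980. On simulated data for released minus control day 3.5 embryos with 9930 genes, the fit recovered 73 of 100 genes changed by 2 log2 units and 98 of 100 changed by 4, with 12 false calls. There each gene had the same mean in all groups before the change, spreads were shuffled among genes, and noise was independent, without pairing. These rates therefore check the fit and are not rates for the real arrays.

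The 5 genes and the 10 gene lists were chosen with earlier results of these data known. The genes named were the 5, up to 4 per family with values, in order of their highest group mean, the 3 genes most like each of the 5 and the 5 most like their mean, and others said to be chosen after their values were seen. Same-numbered samples deviated together in all 15 pairs of groups (correlations 0.125 to 0.417). The numbers were therefore taken to pair the samples, as 2 experiments would, though the labels do not say so. The main fit had no term for this pairing, which entered only as the replicate block among the alternatives. The alternatives were the replicate block, a pseudocount of 16, no filter, median centring, quantile normalization, the mean of probe sets, an intensity trend, only the 4 arrays of a comparison, and leaving out each array. Sequences are from RefSeq tables of GRCm38.p6, and the neighbours and promoter of Pkd2l2 were not analysed here.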

Additional observations from a re-analysis of the deposited data

How the results depend on the processing

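In the 3 comparisons that the choice of genes did not use, 0 of the 5 genes passed under limma in the main setting and in each of 12 alternatives. With all their values there under a level of 5, this says nothing about stability. The adjusted p of Tmprss11a ranged from 0.209 to 0.681 in released day 4.5 minus control day 3.5 embryos and from 0.110 to 0.527 in released day 4.5 minus released day 3.5 embryos. The replicate block, which pairs samples by number, left that count at 0 and changed the number of genes called overall from 31 to 46 in released minus control day 3.5 embryos, and from 1384 to 2061 in U0126 minus control day 2.5 embryos. It changed no call of Cnksr3, Gnai1, Pkd1, Rgs9bp, Arf1 or Taf1a.

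Counts over all genes depended more on the arrays. Released minus control day 3.5 embryos gave 20 calls with a pseudocount of 16, 2 without the filter, 13 with only the 4 arrays and 1 to 30 leaving out an array. Released day 4.5 minus control day 3.5 embryos gave 313 with only the 4 arrays and 84 to 541 leaving out an array, with 84 without control day 3.5 replicate 2, 127 without released day 4.5 replicate 2 and 150 without released day 4.5 replicate 1. Released day 4.5 minus released day 3.5 embryos gave 321 to 759 leaving out any one of the 4 arrays. U0126 minus control day 2.5 embryos gave 409 to 1183 leaving out an array, with 409 and 575 without control replicates 1 and 2 and 809 without U0126 replicate 1. With only its 4 arrays limma called 0 there, with 2245 genes at an unadjusted p under 0.05, so every call of a related gene was lost under that setting.

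With the mean of all probe sets of a gene, the share of the day 1.5 level under U0126 was 34.3% for Rgs17, 22.0% for Ipcef1 and 13.9% for Pkd2l2. For each of these genes a probe set near background both at day 1.5 and under U0126 enters the mean, which narrows the log2 difference. Differences under a level of 5, which cover all 5 genes in these 3 comparisons, carry little signal over background. The width of the intervals rests on the spread within all 6 groups of 2 arrays, the day 1.5 and U0126 groups included. For Ipcef1 that spread holds the gap of 2.18 between its U0126 replicates.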
